A study of Mus musculus with 4 samples.

Results

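The interferon regulatory factors (IRFs) were examined in J774.1 cells, a mouse monocyte-macrophage line, after exposure to 1 of 3 proteasome inhibitors. The group comprised 8 genes, *Irf1*, *Irf2*, *Irf3*, *Irf4*, *Irf5*, *Irf7*, *Irf8* and *Irf9*, taken as a named gene family, though with earlier results of these data known, out of 20144 genes that could be named on the array. These genes were read by 9 probes of 39429, with 2 probes for *Irf1* and 1 for each other gene. Cells were kept for 4 hours in DMSO, the solvent, or in MG132, epoxomicin or ONX0914, each at 1 μM. The labels describe MG132 as a proteasome inhibitor, epoxomicin as an inhibitor of the 20S proteasome and ONX0914 as an inhibitor of the β5 and β5i subunits. The 4 cultures were of the same line, and each gave the RNA of 1 single-color (Cy3) array. One array is titled ONX-5 and carries the treatment label ONX-0912, whereas ONX0914 is the compound named in the treatment protocol and in the paper's Methods, and the array is called ONX0914 here. With 1 array per condition, no difference could be tested between replicate cultures, and no P value is given. The errors at hand were of 2 kinds, neither of which includes the spread between cultures. The scanner software assigned each bright spot an error of 10.0% of its signal, which came to 0.20 on the log2 scale for a difference between 2 arrays, and errors given below are of this kind. The SD between spots of probes printed 10 times was smaller (log2 scale), its median lying between 0.0556 and 0.0615 across the arrays.

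The arrays were alike in general quality. Spots well above background made up 60.3% to 63.1% of spots, no spot was saturated, and all arrays lay on 1 slide. Every macrophage marker with a probe (7 of 7, among them *Csf1r* and *Itgam*) was well above background on all 4 arrays, as the label of the line implies. The summed signal of these markers was 407339 under DMSO, 299683 under MG132, 338737 under epoxomicin and 382378 under ONX0914. This sum and those below are of signals before scaling between arrays. After scaling, the median log2 difference of the 7 markers from DMSO was -0.16, -0.14 and -0.04 under MG132, epoxomicin and ONX0914. Of the 7, 1 was at least 2-fold lower, *Lyz2* under epoxomicin (-1.01). Of the B cell markers examined, 1 of 4 was well above background on all arrays (*Cd79b*), while *Cd79a*, *Pax5* and *Ms4a1* were on no array, and the summed signal lay between 54.8 and 71.4. The 6 T cell markers summed to 6783 under DMSO and to between 7920 and 9003 with the inhibitors, with *Cd3g*, *Cd8a* and *Cd2* not well above background on any array and *Cd3e*, *Cd4* and *Lck* on all. Of these, *Lck* was higher by 1.26 under MG132, 1.44 under epoxomicin and 0.90 under ONX0914 on the log2 scale. The 4 epithelial markers summed to 21.3 under DMSO and to 64.5, 169 and 27.8 under MG132, epoxomicin and ONX0914, respectively, with *Epcam* and *Cdh1* not well above background on any array. *Krt8* made up most of the sums under MG132 and epoxomicin, with a signal of 4.16, 37.8, 121 and 5.29 on the arrays in the same order, and was at least 2.92-fold higher under MG132 and at least 8.12-fold under epoxomicin. *Krt18* was at least 2.26-fold higher under epoxomicin. The bounds of both keratin genes rest on faint signals and the scanner software's background correction. Other corrections were not examined for these markers. The part of the cell type markers in the IRF values was not tested. Of 10 reference genes, 9 differed from DMSO by less than 2-fold on every array. *Gusb*, a lysosomal enzyme, was the exception, at -1.48 under MG132 and -1.36 under epoxomicin on the log2 scale.

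IRFs are transcription factors that share an amino-terminal DNA-binding domain and recognize GAAA repeats, as found in the interferon-stimulated response element (ISRE). IRF3 and IRF7 are phosphorylated by the kinases TBK1 and IKKε downstream of nucleic acid sensors and switch on interferon genes, and IRF5 acts downstream of MyD88 on inflammatory cytokines. IRF9 joins STAT proteins in ISGF3, the complex that carries the type I interferon signal to the ISRE. IRF1 is an activator that is itself induced by interferon-γ and through NF-κB, IRF2 competes with it for the same sites, and IRF4 and IRF8 bind DNA with partners such as PU.1 in lymphoid and myeloid cells.

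The promoters of the genes whose transcripts differed most are shown because these genes moved in the same direction. That of *Irf2* is shown for comparison, since it was the single IRF promoter with a match to an ISRE core. RefSeq (GRCm38.p6) gave 11 windows for the 8 genes, each with 250 bases before and 50 bases after a transcription start. Capitals mark matches, on either strand, to the ISRE core GAAANNGAA, to the gamma-activated site (GAS) TTCNNNGAA that STAT dimers recognize, or to the κB site.
Irf1, chr11:53769764-53770063, + strand: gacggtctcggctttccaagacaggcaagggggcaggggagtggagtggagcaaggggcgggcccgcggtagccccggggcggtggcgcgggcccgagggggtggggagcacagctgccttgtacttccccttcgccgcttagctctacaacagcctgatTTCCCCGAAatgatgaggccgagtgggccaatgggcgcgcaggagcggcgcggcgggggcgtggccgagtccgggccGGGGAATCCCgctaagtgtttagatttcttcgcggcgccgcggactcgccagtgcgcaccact
Irf8, chr8:120736108-120736407, + strand: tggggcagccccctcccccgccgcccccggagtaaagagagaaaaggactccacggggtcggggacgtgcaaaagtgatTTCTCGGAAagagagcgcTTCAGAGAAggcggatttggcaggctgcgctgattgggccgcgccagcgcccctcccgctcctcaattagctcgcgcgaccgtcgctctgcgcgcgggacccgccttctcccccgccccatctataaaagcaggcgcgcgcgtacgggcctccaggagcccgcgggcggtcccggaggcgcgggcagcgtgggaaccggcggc
Irf7, chr7:141266375-141266674, - strand: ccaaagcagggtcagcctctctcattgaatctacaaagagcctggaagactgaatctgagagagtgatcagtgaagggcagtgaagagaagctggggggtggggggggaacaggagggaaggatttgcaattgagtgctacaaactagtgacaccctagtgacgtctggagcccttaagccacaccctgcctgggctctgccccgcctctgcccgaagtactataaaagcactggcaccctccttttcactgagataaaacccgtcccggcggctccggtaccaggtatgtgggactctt
Irf9, chr14:55603735-55604034, + strand: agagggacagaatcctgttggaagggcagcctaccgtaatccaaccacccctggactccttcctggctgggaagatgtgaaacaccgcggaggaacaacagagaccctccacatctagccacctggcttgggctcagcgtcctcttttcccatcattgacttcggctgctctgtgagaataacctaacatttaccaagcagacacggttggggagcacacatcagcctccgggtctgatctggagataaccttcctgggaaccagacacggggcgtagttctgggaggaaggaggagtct
Irf2, chr8:46739495-46739794, + strand: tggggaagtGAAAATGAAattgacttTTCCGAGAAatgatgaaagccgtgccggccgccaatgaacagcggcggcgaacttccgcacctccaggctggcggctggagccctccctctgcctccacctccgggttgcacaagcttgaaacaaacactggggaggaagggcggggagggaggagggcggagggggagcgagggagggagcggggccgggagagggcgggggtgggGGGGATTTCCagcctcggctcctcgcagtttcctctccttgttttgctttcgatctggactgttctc
The *Irf1* window held a GAS match, TTCCCCGAA, whose first base lies at -90 from the start, and a κB match at -13, which reads as a site on both strands. The *Irf8* window held 2 GAS matches, TTCTCGGAA at -171 and TTCAGAGAA at -153. The *Irf2* window held an ISRE core match, GAAAATGAA, at -241, a GAS match, TTCCGAGAA, at -224 and a κB match at -17. The windows of *Irf3*, *Irf4*, *Irf5*, *Irf7* and *Irf9*, and the second windows of *Irf1*, *Irf8* and *Irf9*, held none of these letters. Among all 32851 windows of the table, an ISRE core was found in 8.56%, a GAS in 8.30% and a κB site in 4.50%. The GGAA core, which lies within some of these matches and is not capitalized on its own, was found in all 11 windows and in 96.0% of all windows. These are matches of letters, and binding was not measured.

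Of the 8 genes, 7 were well above background on all arrays, and *Irf4* on none. *Irf1*, *Irf7*, *Irf8* and *Irf9* were higher with every inhibitor than under DMSO, whereas *Irf2*, *Irf3* and *Irf5* stayed within 2-fold. With MG132, 4 of the 7 measured genes were at least 2-fold higher (*Irf1*, *Irf7*, *Irf8* and *Irf9*) and 0 were at least 2-fold lower. Over all 14009 genes compared, 7.17% were higher and 3.63% lower by that measure. With epoxomicin, the same 4 genes of 7 were higher and 0 lower, against 8.4% and 4.35% of 14059 genes. With ONX0914, 2 of 7 were higher (*Irf1* and *Irf7*) and 0 lower, against 3.23% and 1.38% of 13987 genes. The median difference of the 7 genes was 1.20 under MG132, 1.54 under epoxomicin and 0.79 under ONX0914 on the log2 scale. The median over all genes was -0.0141, -0.0311 and -0.0013, respectively. The signals are averages over a culture, so that more RNA per cell and more cells with that RNA cannot be told apart.

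**Figure D1:**
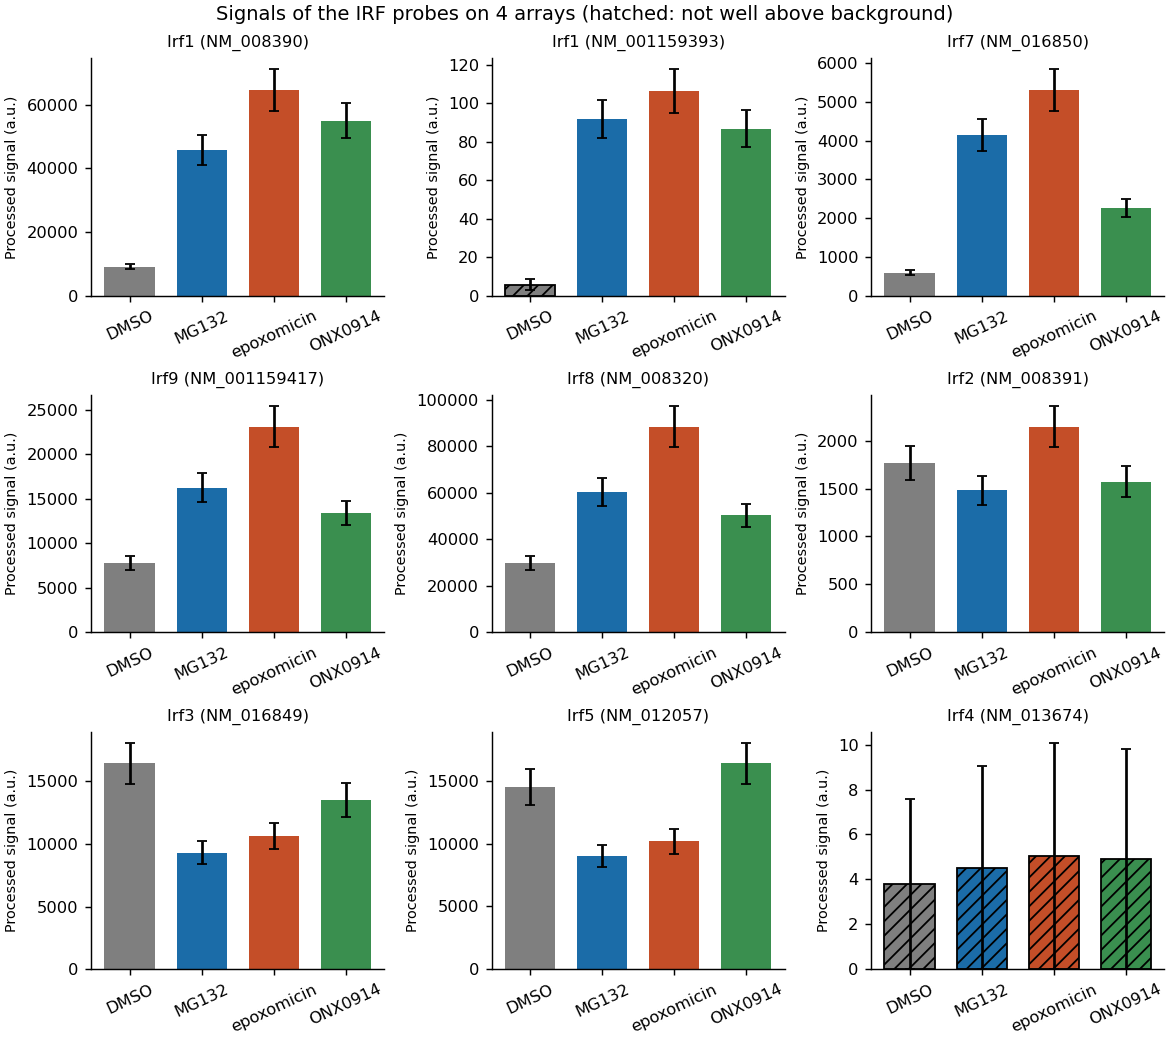
Processed signal (arbitrary units, before scaling between arrays) of the 9 IRF probes, 1 panel per probe with its own axis from 0 and the transcript the probe is assigned to. Bars are single arrays, error bars are the scanner software's error of the spot, and hatched bars are not well above background. The inhibitor bars stand above DMSO for *Irf1*, *Irf7*, *Irf8* and *Irf9*, and the highest *Irf4* bar stands at 5.05.

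*Irf1*, an activator induced by interferon-γ, was the gene on which the inhibitors differed least among the 4 that were higher. Its main probe (transcript NM_008390) gave a processed signal of 9157 under DMSO, 45798 under MG132, 64688 under epoxomicin and 55070 under ONX0914. All inhibitor arrays thus lay far above DMSO. After scaling, the log2 difference from DMSO was 2.51 ± 0.20 under MG132 (5.69-fold), 2.80 ± 0.20 under epoxomicin (6.97-fold) and 2.63 ± 0.20 under ONX0914 (6.18-fold). Ranked by difference among all genes compared, *Irf1* was at position 163 under MG132, 162 under epoxomicin and 52 under ONX0914. The second probe, assigned to another *Irf1* transcript (NM_001159393), was faint, and whether it reads only that transcript was not examined. Its signal was 5.77 under DMSO, which was not well above background, and 91.5, 106 and 86.7 under MG132, epoxomicin and ONX0914, which were. Against the lowest signal well above background on the DMSO array (14.7), this probe was at least 7.08-fold higher under MG132. It was at least 7.12-fold higher under epoxomicin and at least 6.06-fold under ONX0914. These bounds rest on the background correction of the scanner software. With normexp correction, they were 0.99, 1.01 and 0.77 on the log2 scale when outlier spots were left out of the fit and 0.00 when these were kept, while the main probe stayed between 2.32 and 2.97 under all 11 alternatives.

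*Irf7*, which amplifies interferon production and is itself a target of ISGF3, had the largest difference under MG132 and epoxomicin among the genes' main probes, while the values of the second *Irf1* probe are lower limits. Its signal went from 596 under DMSO to 4139 under MG132, 5305 under epoxomicin and 2264 under ONX0914. The ONX0914 array lay between DMSO and the other inhibitors. The log2 differences were 2.98 ± 0.20 (7.90-fold), 3.13 ± 0.20 (8.78-fold) and 1.97 ± 0.20 (3.90-fold), respectively. Of all genes compared, 99.3%, 99.2% and 99.1% had a smaller difference. The distance of *Irf1* from *Irf7* does not depend on a shift between arrays. With ONX0914, the difference of *Irf1* exceeded that of *Irf7* by 0.66 ± 0.29 on the log2 scale. With MG132 and epoxomicin, the same quantity was -0.47 ± 0.29 and -0.33 ± 0.29. These 2 values were within 2 errors of 0 and turned to 0.15 and 0.27 with normexp correction when outlier spots were kept in the fit (-0.28 and -0.16 when they were left out), whereas that under ONX0914 stayed between 0.66 and 1.23.

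*Irf9*, the DNA-binding part of ISGF3, had a signal of 7762 under DMSO, 16260 under MG132, 23102 under epoxomicin and 13435 under ONX0914. Its log2 difference was 1.25 ± 0.20 (2.38-fold), 1.55 ± 0.20 (2.94-fold) and 0.83 ± 0.20 (1.78-fold). *Irf8*, which sets the myeloid program together with PU.1, had a signal of 29932 under DMSO, 60382 under MG132, 88433 under epoxomicin and 50346 under ONX0914. Its log2 difference was 1.20 ± 0.20 (2.29-fold), 1.54 ± 0.20 (2.92-fold) and 0.79 ± 0.20 (1.73-fold). Both genes were thus past 2-fold under MG132 and epoxomicin and short of it under ONX0914. Under ONX0914, *Irf9* and *Irf8* ranked at positions 627 and 692 of 13987 genes from the highest difference.

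*Irf2*, the competitor of *Irf1*, had a signal of 1768 under DMSO, 1480 under MG132, 2145 under epoxomicin and 1573 under ONX0914. Its log2 difference was -0.07 ± 0.20, 0.26 ± 0.20 and -0.13 ± 0.20, none of which exceeded 2 errors. When *Hprt* alone set the scale, the value under MG132 was 0.13 and that under epoxomicin 0.42, which exceeds 2 errors. The constitutive factor *Irf3* had a signal of 16432 under DMSO, 9287 under MG132, 10629 under epoxomicin and 13507 under ONX0914. All inhibitor arrays were below DMSO, at -0.64 ± 0.20, -0.65 ± 0.20 and -0.24 ± 0.20 on the log2 scale, and those under MG132 and epoxomicin by more than 2 errors. *Irf5*, the factor of the MyD88 pathway, had a signal of 14535 under DMSO, 9028 under MG132, 10188 under epoxomicin and 16414 under ONX0914. It was lower under MG132 (-0.50 ± 0.20) and epoxomicin (-0.53 ± 0.20), by more than 2 errors, and stood at 0.21 ± 0.20 under ONX0914. When *Hprt* alone set the scale, the first 2 values were -0.30 and -0.37, within 2 errors, as was the value under MG132 with normexp correction on all spots (-0.40). *Irf4*, the lymphoid partner of PU.1, had a signal of 3.79 under DMSO, 4.52 under MG132, 5.05 under epoxomicin and 4.89 under ONX0914. None of these was well above background, nor did the software mark any as positive and significant, so that no difference is given.

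**Figure D2:**
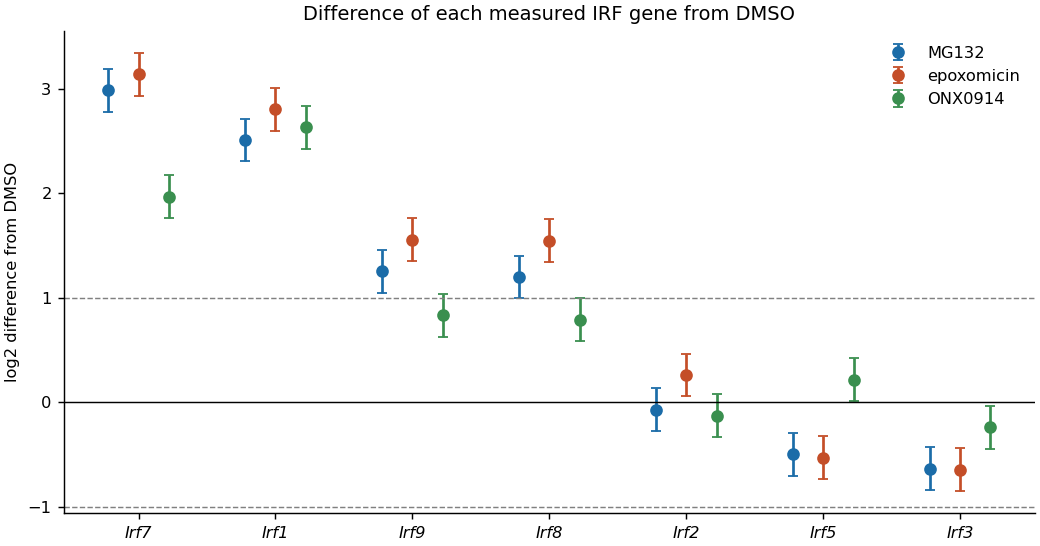
Log2 difference from DMSO of the 7 measured IRF genes under MG132, epoxomicin and ONX0914. Points are differences between 2 arrays after scaling, error bars are the combined software error of both spots (0.20), and dashed lines mark 2-fold. *Irf7* and *Irf1* lie beyond 2-fold with all inhibitors, *Irf9* and *Irf8* under MG132 and epoxomicin, and *Irf2*, *Irf5* and *Irf3* with none.

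**Figure D3:**
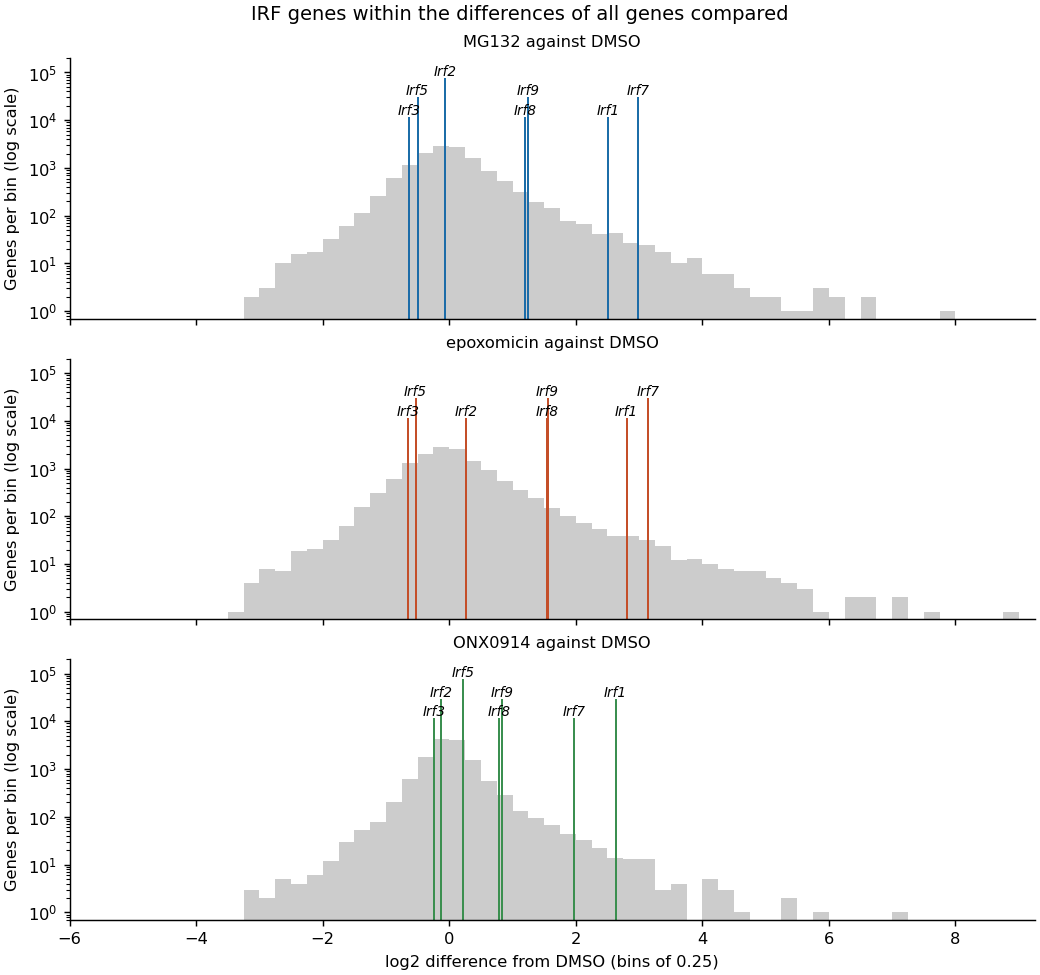
Distribution of the log2 difference from DMSO over all genes compared (14009 under MG132, 14059 under epoxomicin and 13987 under ONX0914), as genes per bin of 0.25 on a log axis. Vertical lines are the 7 measured IRF genes. *Irf1* and *Irf7* lie in the right tail with every inhibitor, with 98.8% or more of genes below them.

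The inhibitors were next compared with each other, at the same dose and time, over the 7 genes and 3 pairs of compounds. All pairs share the DMSO array as their reference, which cancels in these differences. Epoxomicin and MG132 differed by 0.35 or less on the log2 scale for every gene, within 2 combined errors (0.41). An interval of 2 errors around the largest of these, 0.35 for *Irf8*, runs from -0.06 to 0.75, so that the compounds are not shown to act alike. Without any scaling between arrays, epoxomicin exceeded MG132 by more than 2 errors for 4 genes, by 0.50 for *Irf1*, 0.54 for *Irf2*, 0.55 for *Irf8* and 0.51 for *Irf9*. ONX0914 lay nearer to DMSO than both other inhibitors for *Irf7*, *Irf8*, *Irf9*, *Irf5* and *Irf3*, but not for *Irf1* and *Irf2*. Over all genes, ONX0914 also had fewer at least 2-fold higher (3.23%) or lower (1.38%). The shares were 7.17% and 3.63% under MG132 and 8.4% and 4.35% under epoxomicin. The pairs of inhibitors were not compared over all genes, so that a difference particular to the IRF genes was not tested. *Irf7* was lower under ONX0914 than under MG132, by -1.02 ± 0.20, and than under epoxomicin, by -1.17 ± 0.20. *Irf5* was higher under ONX0914, by 0.72 ± 0.20 and 0.75 ± 0.20. *Irf8* and *Irf9* were lower under ONX0914 than under epoxomicin, by -0.75 ± 0.20 and -0.72 ± 0.20. Against MG132, the differences of *Irf8* (-0.41 ± 0.20) and *Irf9* (-0.42 ± 0.20) were at the limit of 2 errors. They passed it under 8 and 9 of 11 alternatives and fell short of it without scaling (-0.26 and -0.28), with a shift to the median (-0.31 and -0.33) and, for *Irf8*, in the authors' table (-0.40). *Irf1*, *Irf2* and *Irf3* differed between ONX0914 and the other inhibitors by no more than 2 errors, at 0.12, -0.06 and 0.39 against MG132 and -0.17, -0.39 and 0.40 against epoxomicin. Intervals of 2 errors around the values against MG132 ran from -0.29 to 0.53 for *Irf1*, from -0.47 to 0.35 for *Irf2* and from -0.01 to 0.80 for *Irf3*. Those against epoxomicin ran from -0.58 to 0.23 for *Irf1*, from -0.80 to 0.02 for *Irf2* and from -0.0036 to 0.81 for *Irf3*. For *Irf2* and *Irf3*, this depended on the processing. *Irf3* passed 2 errors against MG132 under 2 of 11 alternatives (up to 0.54 without scaling) and against epoxomicin under 4 (up to 0.47 with a shift to the median), and *Irf2* against epoxomicin under 3 (to -0.52 with *Hprt*). For *Irf7* and *Irf5*, the differences of ONX0914 from both other inhibitors exceeded 2 errors under all 11 alternatives. Among these 11, the other filters on dim probes and signals in place of bounds could not change the values. The 7 genes were well above background on all arrays, so that these alternatives carry no support.

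For each IRF gene that passed 2-fold, the genes with the most similar profile were sought among 12727 other genes well above background on all arrays, by Euclidean distance over the 3 log2 differences. Profiles of 3 values that share a DMSO array carry little information, and the lists are a description. Nearest to *Irf1* were *Cd274* (the checkpoint ligand PD-L1, distance 0.22), *Irgm1* (an interferon-inducible GTPase, 0.40), *Socs3* (a feedback inhibitor of cytokine receptors, 0.53) and *Sesn2* (0.56). Like *Irf1*, *Cd274* stood at 2.66, 2.83 and 2.78 under MG132, epoxomicin and ONX0914. Nearest to *Irf7* were *Soat2* (0.14), *Usp18* (which removes ISG15 and restrains the interferon receptor, 0.14), *Cdkn1a* (the cell cycle inhibitor p21, 0.21), *Zfp420* (0.22) and *Ifi209* (0.24). The profiles of *Irf8* and *Irf9* were close to each other, at a distance of 0.07. The other genes nearest to *Irf8* were *Uba7* (the activating enzyme of ISG15, 0.07), *Trib1* (0.07), *Kmo* (0.09) and *Yars* (0.11), and those nearest to *Irf9* were *Kmo* (0.04), *Yars* (0.06), *Trib1* (0.09) and *Atg14* (0.11).

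Genes that work with or against IRFs were then examined in groups. Of all genes compared, 7.17%, 8.4% and 3.23% were at least 2-fold higher under MG132, epoxomicin and ONX0914. The shares at least 2-fold lower were 3.63%, 4.35% and 1.38%. Among the 3 IRF2-binding cofactors, 0 were at least 2-fold higher with any inhibitor, and 1 was lower, *Irf2bp2* under epoxomicin. *Irf2bp2*, a corepressor bound by IRF2, went from 14988 to 7879 under MG132 and 6375 under epoxomicin, with a signal of 13742 under ONX0914. Its log2 difference was -0.74, -1.25 and -0.09. Its second probe gave lower values, at -1.17, -1.57 and -0.70.

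Most of the adaptors and kinases that activate IRFs differed little. Of 16 measured, 3 were at least 2-fold higher under MG132 and epoxomicin and 0 under ONX0914, and 0 were lower with any. The shares of all genes that were higher were 7.17%, 8.4% and 3.23% under MG132, epoxomicin and ONX0914. The median was -0.0023, 0.0183 and 0.19 under MG132, epoxomicin and ONX0914. *Tank*, a scaffold of TBK1, went from 380 under DMSO to 1086, 1247 and 724 (log2 difference 1.70, 1.69 and 0.97), and a second probe gave 1.71, 1.90 and 0.98. *Cgas*, the cytosolic DNA sensor upstream of IRF3, went from 13893 to 28363, 45735 and 16463 (1.21, 1.70 and 0.28). Of its other probes, 1 gave 1.15, 1.87 and 0.46 and 1 gave 0.876, 1.105 and -0.033, so that the call under MG132 depends on the probe. *Traf6*, the ubiquitin ligase between MyD88 and IRF5 or IRF7, went from 756 to 1396, 1952 and 1187 (1.07, 1.35 and 0.69). The kinases stayed within 2-fold. *Tbk1* stood at -0.22, 0.07 and 0.29, and *Ikbke*, which encodes IKKε, at -0.36, -0.97 and -0.04.

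Of the genes for DNA-binding and coactivating partners, 7 of the 8 examined were measured. The same 2 were at least 2-fold higher with every inhibitor, *Stat2* and *Batf2*, with 0 lower. Over all genes, 7.17%, 8.4% and 3.23% were higher under MG132, epoxomicin and ONX0914. The median of the 7 partners was 0.30, 0.11 and -0.05, so that the group as a whole did not follow *Stat2* and *Batf2*. *Stat2*, a partner of IRF9 in ISGF3, had a signal of 4617 under DMSO, 20141 under MG132, 25532 under epoxomicin and 12637 under ONX0914 (log2 difference 2.31, 2.45 and 1.49). *Batf2*, a leucine zipper factor that acts with IRF1 in macrophages, showed the largest difference among the partners. Its signal was 113 under DMSO, 3415 under MG132, 5315 under epoxomicin and 2161 under ONX0914, or 34.3-fold, 46.3-fold and 19.6-fold higher after scaling. The size of these folds rests on the dim DMSO signal, and other background corrections were not examined for *Batf2*. *Spi1*, which encodes PU.1, stood at -0.52, -0.97 and 0.08. *Batf*, the partner of IRF4, was not well above background on any array.

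Among 7 genes that restrain IRFs or their pathway, 3 were at least 2-fold higher under MG132 and epoxomicin and 2 under ONX0914, with 0 lower. The shares of all genes that were higher were 7.17%, 8.4% and 3.23% under MG132, epoxomicin and ONX0914. *Socs1*, an inhibitor of JAK kinases, was highest under ONX0914. Its signal was 316 under DMSO, 2311 under MG132, 3236 under epoxomicin and 6654 under ONX0914 (log2 difference 3.06, 3.34 and 4.43). *Usp18* went from 6335 to 42834, 59414 and 26013 (2.94, 3.21 and 2.08). *Trim21*, a ubiquitin ligase for several IRFs, went from 655 to 1217, 1927 and 1086 (1.08, 1.54 and 0.77).

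**Figure D4:**
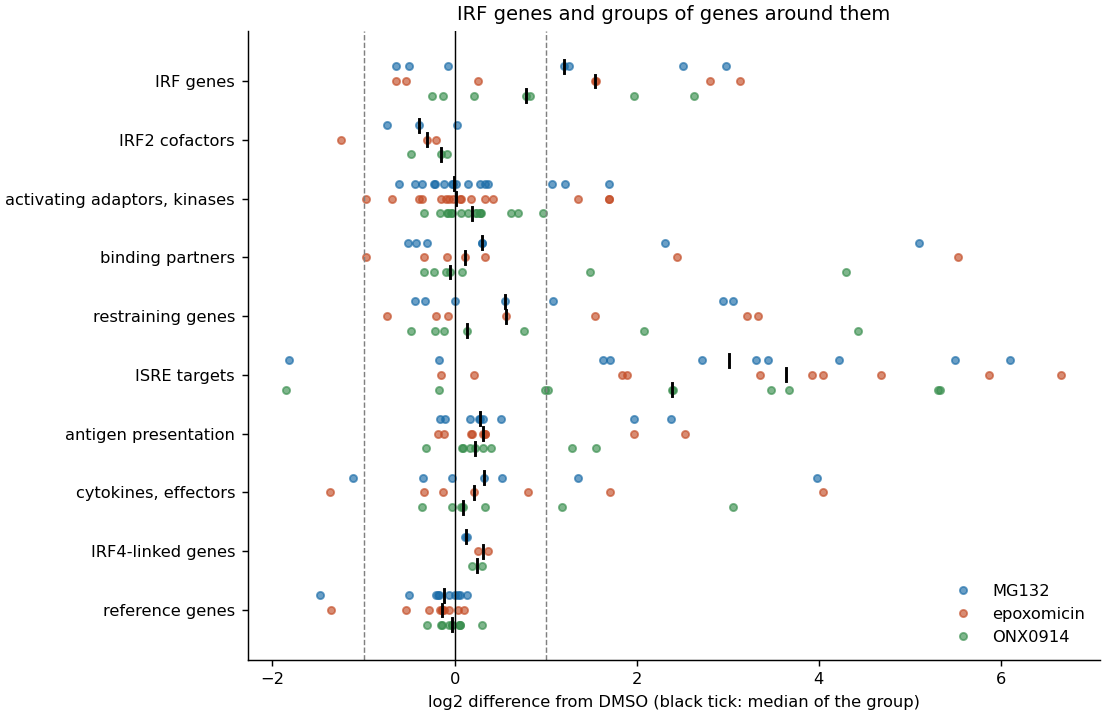
Log2 difference from DMSO of the 7 measured IRF genes and of the genes around them, in groups. Points are genes (1 array per condition, bounds included), black ticks are group medians, and dashed lines mark 2-fold. Known ISRE targets stand furthest to the right, with medians of 3.01, 3.64 and 2.39 for MG132, epoxomicin and ONX0914, while most adaptors, kinases and antigen presentation genes lie near 0.

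Most genes known as ISRE targets were higher on the inhibitor arrays than under DMSO. Of 10, 8 were at least 2-fold higher under MG132 and epoxomicin and 7 under ONX0914. Over all genes compared, 7.17%, 8.4% and 3.23% were higher by that measure under MG132, epoxomicin and ONX0914. The 1 gene counted as lower was *Ifnb1*, under MG132 and ONX0914, as a bound on a faint probe. The median of the 10 was 3.01, 3.64 and 2.39. *Rsad2*, which encodes the antiviral enzyme viperin, was the furthest of the 10 from DMSO under MG132 and epoxomicin, with a signal of 660 under DMSO, 39790 under MG132, 67508 under epoxomicin and 25520 under ONX0914. *Cxcl10*, a T cell chemokine, went from 2622 to 104018, 155605 and 102756 (log2 difference 5.49, 5.87 and 5.33). *Isg15*, *Ifit1*, *Ifit2*, *Ifit3*, *Oas1a* and *Oas2* were higher by 1.63 to 4.22 under MG132, 1.84 to 4.68 under epoxomicin and 0.99 to 3.67 under ONX0914. *Ifnb1*, the interferon gene that IRF3 and IRF7 switch on, was read by a faint probe and was not 2-fold higher under any inhibitor. Its signal was 71.3 under DMSO, 15.1 under MG132, 84.1 under epoxomicin and 8.08 under ONX0914, and those under MG132 and ONX0914 were not well above background. Against the lowest signal well above background, it was at least 3.52-fold lower under MG132 and at least 3.60-fold lower under ONX0914. Under epoxomicin it stood at 0.22 on the log2 scale. The bounds rest on a faint probe and on the scanner software's background correction, and other corrections were not examined for *Ifnb1*.

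Genes of antigen presentation, many of them targets of IRF1, were mostly close to DMSO, with a median of 0.28, 0.31 and 0.22. With every inhibitor, 2 of 9 were at least 2-fold higher and 0 lower. The shares of all genes that were higher were 7.17%, 8.4% and 3.23% under MG132, epoxomicin and ONX0914. The 2 antigen presentation genes were *Nlrc5*, the transactivator of class I genes (2865 under DMSO, then 13115, 16796 and 8191), and *Tap1*, a subunit of the peptide transporter (1576, then 5428, 6277 and 3763). Their log2 differences were 2.38, 2.53 and 1.55 for *Nlrc5* and 1.97, 1.97 and 1.29 for *Tap1*. A second, fainter *Nlrc5* probe gave 1.58, 1.72 and 0.97. Of 10 cytokine and effector genes, 7 were measured, and *Il6* and *Il15* were at least 2-fold higher with every inhibitor. *Il6* went from 84.5 to 1168, 1418 and 687 (3.98, 4.05 and 3.06), and *Il15* from 162 to 364, 534 and 356 (1.35, 1.70 and 1.18). The DMSO signals of both were dim, and other background corrections were not examined for them. *Tnf* was at least 2-fold lower under MG132 and epoxomicin, going from 11612 to 4719 and 4563, with 8848 for ONX0914 (-1.11, -1.37 and -0.35). Of 5 genes linked to IRF4, 2 were measured and neither passed 2-fold.

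**Figure D5:**
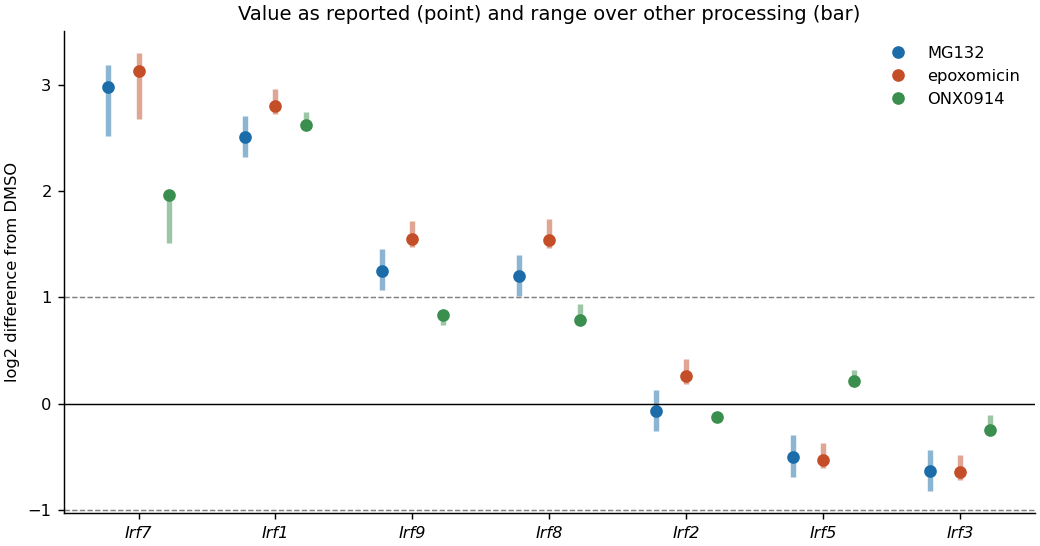
Log2 difference from DMSO of the 7 measured IRF genes as reported (points) and its range over 11 other ways of processing (bars), with dashed lines at 2-fold. No bar crosses 2-fold, and the bar of *Irf2* under MG132 crosses 0.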

How the data were processed

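Each array was hybridized with Cy3-labeled RNA, and the authors deposited scanner files made by Feature Extraction 10.7.1.1. These hold an intensity for every spot, its error and the software's other calls (0 or 1 for background, outliers and saturation), without scaling between arrays. The file headers describe a mouse design, although the Methods name a human one. A table that the authors deposited beside them holds log2 values relative to each probe's median over the arrays (39483 entries), and has column medians of -0.0475 for DMSO, 0.0180 for MG132, -0.0186 for epoxomicin and 0.0134 for ONX0914. It followed the values computed here (r of 0.9996 or more over 22418 probes) and served as an alternative. Its scale and direction were taken from that comparison.

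Control and outlier spots were left out, the log2 of the processed intensity was taken, and the log2 of the array's 75th percentile of all spots other than controls was subtracted. Of 39429 probes, 26581 (67.4%) were named through the RefSeq table of GRCm38.p6. Where a gene had several probes, the brightest stood for it. A gene was compared if well above background on either array, and a signal below that was replaced by the lowest signal well above background, or its own value if higher, which gives a bound. Differences of 2-fold (1 on the log2 scale) were counted. The members, the gene lists and the alternatives were chosen with earlier results of these data known. All members are named, and under the rule a pathway gene may be named when past 2-fold with at least 1 inhibitor, beside *Stat2*, *Spi1*, *Tbk1* and *Ikbke*. For each member past 2-fold, the rule takes the 5 most similar genes. Some genes were taken off the lists and out of their counts, or left out among similar genes, and are not reported here. *Batf*, *Cd79b* and the other marker and reference genes were named after their values were seen. *Tasl* and *Il12b* were not analysed here.

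Alternatives were normexp background correction (offset 50) with or without outlier spots, quantile normalization, a shift to the median, a percentile over detected probes, scaling by *Hprt* alone, no scaling, the authors' table, means over probes, signals in place of bounds, other filters on dim probes, and thresholds of 1.5-fold and 4-fold. The median pixel brightness of a spot served for normexp, since its mean was not used here. On simulated data, 200 of 200 changed genes were recovered in the comparison of MG132 with DMSO (and in those of epoxomicin and ONX0914), and 0 of 13512 unchanged genes were counted. The simulated arrays were the DMSO array with small noise added. Every planted change lay beyond the threshold, in bright probes above background on all arrays. The spread between cultures and bounds were not simulated. These settings fixed the outcome, which checks the code and not the reliability of differences between single arrays. The software was R 4.3.3 (limma 3.58.1) and Python 3.11.15 (numpy 2.4.6, pandas 2.3.3, matplotlib 3.10.9).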

Additional observations from a re-analysis of the deposited data

How the results depend on the processing

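Of 120 alternative values for the counts and medians of the IRF genes, 104 stayed within the spread between spots (0.0870 on the log2 scale) or, for counts, within 1.5 times. Some of these could not differ. Signals in place of bounds, and a filter for genes above background on all arrays, leave the measured genes as they are. At a 4-fold threshold, 2 genes were higher with MG132, 2 with epoxomicin and 1 with ONX0914. At 1.5-fold, 4 were higher with ONX0914 and 1 gene was lower with MG132 and 1 with epoxomicin. The median difference with MG132 was 1.33 with normexp correction on all spots, 1.097 with a shift to the median, 1.40 with *Hprt* as the only scaling, 1.01 with no scaling and 0.82 with no filter on dim probes, which adds *Irf4*. With epoxomicin, it was 1.67 with normexp correction on all spots, 1.71 with *Hprt* and 0.97 with no filter. With ONX0914, it was 0.89 with normexp correction on all spots and 0.60 with no filter. Scaling by *Hprt* moved the median of all genes to 0.17 with MG132 and 0.12 with epoxomicin, no scaling moved it to -0.20 with MG132, and a shift to the median moved it to -0.11 with both. Of 261 alternative values for single probes, 64 moved and 0 turned a 2-fold difference to the opposite sign. Such a turn was hardly possible. Bounds were held from passing 0, and the 2-fold differences were large beside the shifts between scalings. The lack of reversals therefore carries little support. Signal over background limits *Irf4* and the second *Irf1* probe. No paired analysis was possible because each condition had 1 array. For the same reason, no array could be left out.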
